A study of Mus musculus with 12 samples.

Results

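Importins, exportin 1 and the small GTPase Ran carry proteins between cytoplasm and nucleus, and 10 of their genes were followed in mouse oocytes that lack the RNA-binding proteins ZAR1 and ZAR2. The 10 genes were taken by name from a table of 23230 genes: the 6 importin alpha genes Kpna1, Kpna2, Kpna3, Kpna4, Kpna6 and Kpna7, the importin beta genes Kpnb1 and Ipo5, the export receptor Xpo1, and Ran. All 10 passed the filter of 1 FPKM or more in some library (FPKM is a read density corrected for transcript length and library size), as did 11502 genes in all.

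The table holds 6 groups of 2 libraries, made by Smart-seq2 from 10 pooled oocytes each, of WT and Zar1/2-null females on a C57BL6/ICR hybrid background. No group received a treatment beyond the hormones used to collect it. The growing oocytes came from females aged 13.5 days in the labels and 12 days in the methods, the fully grown germinal vesicle (GV) oocytes from females of 21 days at 44 h after PMSG, and the ovulated metaphase II (MII) oocytes were taken 16 h after hCG. Each null allele is a small germline CRISPR/Cas9 deletion near the start codon that shifts or ends the reading frame, so both proteins are lost in every cell of the mother while the mRNAs can still be made. The study describes spindle and polar body defects in ovulated null oocytes and reports their arrest at metaphase I or telophase I. The label MII thus names null oocytes by their collection after ovulation and not by their stage. In comparisons that use null MII libraries, genotype and meiotic stage cannot be told apart. No label ties a library to an animal, so the p-values measure the spread between these libraries, which may be technical.

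The authors had multiplied each library by a factor derived from its share of ERCC reads. ERCC is a mix of synthetic RNAs, of which every lysate received the same dose. The factor is meant to turn a value into an amount per oocyte. All FPKM values are on this scale unless called unscaled. The factors, recovered from the deposited values, ran from 0.225 in a WT MII library to 1 in the WT growing libraries, and were 0.283 and 0.252 in the Zar1/2-null MII libraries. The study lists different ERCC shares for the WT growing libraries, although both had a factor of 1. Their values are thus not on 1 common scale per oocyte. The study lists equal ERCC shares for both WT GV libraries, whose factors were 0.836 and 0.697. The WT GV libraries are thus not on 1 common scale per oocyte either. Whether each factor refers to the WT growing library of the same number was not tested. Spearman correlations between the 2 libraries of a group were 0.973 to 0.978 across the kept genes, which are not independent replicates. Zar1l, the table's name for Zar2, was listed at 639 and 644 FPKM in WT growing and 17.5 and 13.2 FPKM in Zar1/2-null growing oocytes, in the direction of its label. Zar1 mRNA was listed at 603 and 725 FPKM in WT growing and 407 and 460 FPKM in null growing oocytes, and at 83.6 and 72.4 FPKM in WT MII and 190 and 194 FPKM in null MII oocytes. It was thus lower in the null in growing oocytes and higher at MII (log2 fold change 1.29, limma adjusted p = 0.000381), and with so small a deletion its level does not check the labels. A list of 12 oocyte markers summed to between 4808 and 22917 FPKM in a library. The sums were 5.21 to 32.5 FPKM for 14 granulosa and cumulus markers and 0.458 to 3.07 FPKM for 6 immune and blood markers, with Ptx3, Hba-a1 and Hbb-b1 at 0 in every group. Other markers were present, such as Cyp19a1 with a mean of 17.9 FPKM in WT growing oocytes.

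Importin alpha recognises the nuclear localisation signal of a cargo and hands it to importin beta, which takes the complex through the nuclear pore, and Ran bound to GTP then releases the cargo inside. Exportin 1 binds cargo together with Ran bound to GTP and carries it out. In dividing cells, and in oocytes whose nuclear envelope has broken down, the same proteins hold or release spindle assembly factors around the chromosomes, and Kpna7 encodes the importin alpha of oocytes and early embryos.

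The mRNA sequences were examined before the levels, because 2 of the genes share much of their sequence with copies elsewhere and because the study concerns proteins that bind the ends of maternal mRNAs. Transcripts and positions are from GENCODE vM1 on mm9, and each is the one with the longest coding sequence. The last bases of 5 of the mRNAs are given from 12 bases before the last poly(A) signal to 12 bases after it, 5′ to 3′, with AATAAA or ATTAAA in capitals. They belong to 5 of the members with such a signal near the end, and those of Kpna4 and Kpna6 are not shown.
Kpna2: ctgtaAATAAAgATTAAAgttccattcttt
Kpna7: tcatacatttgtAATAAAtgcttatgattt
Kpnb1: ctttatcttctgAATAAAgtccgctttatt
Xpo1: ctaagcacacttAATAAAgtgcttaaatta
Ipo5: ttgcattacttcATTAAAacaaaatttgga

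A signal was found within 40 bases of the annotated end in 7 of the 10 members and in 75.7% of 10204 kept genes with a 3′ UTR of 50 bases or more. The annotated ends of Kpna1, Kpna3 and Ran held none in that window. A cytoplasmic polyadenylation element (searched as TTTTAT or TTTTAAT on the mRNA strand) within 100 bases before the signal was found in 1 member, Ipo5, and in 15.5% of the 10204 genes. It lay 63 bases before the signal and is shown in capitals.
Ipo5 element: tacaaaaatgagTTTTATgcataaatcaga
Anywhere in the 3′ UTR, 9 members held at least 1 such element, against 58.4% of the 10204 genes. A longer 3′ UTR has more room for a match, and that share was not matched for length. Kpna4, with a 3′ UTR of 6940 bases, held 14. Kpna2, with the shortest 3′ UTR of the 10 at 258 bases, held none. Kpna2 and Kpna4 each held 1 match to TGTAAATA or TGTATATA, letters known as a Pumilio site, which occurred in 17.5% of genes. The Kpna2 sequence given above holds both AATAAA and ATTAAA, and its TGTAAATA overlaps the former. A match is a description of letters and no evidence of binding.

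The authors kept only reads of 50 bp with a single mapping position, so a read lying wholly in a stretch of 50 bases that recurs elsewhere in the genome has no single position of its own. Of the 2005 such stretches of the Kpna2 transcript (chromosome 11 of mm9, 106849943 to 106860855, minus strand), 1858 (92.7%) occurred unchanged at 13 other places. Among these were the pseudogenes Gm10184 on chromosome 17 (90307815 to 90309782), with 1922 matched bases, and Gm10259 on chromosome 3 (25109686 to 25111653), with 1914. The share was 51.4% for Ran (chromosome 5, 129525944 to 129530198, plus strand), whose main copy is the pseudogene Gm13461 on chromosome 2. It was 6.74% for Kpnb1, 5.77% for Ipo5, 0.410% for Kpna4 and 0.180% for Kpna1, and 0 for Kpna3, Kpna6, Kpna7 and Xpo1. The levels of Kpna2 and Ran are therefore uncertain against those of other genes. The copies were sought in mm9 only, and differences between animals of the hybrid background were not tested.

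The other genes lie on 6 chromosomes of mm9. Kpna7 is at 145744388 to 145844899 on chromosome 5 (minus strand), Xpo1 at 23156041 to 23198249 (plus) and Kpnb1 at 97021028 to 97049195 (minus) on chromosome 11, and Kpna3 at 61984023 to 62058784 (minus) and Ipo5 at 121310416 to 121347264 (plus) on chromosome 14. Kpna1 is at 35978836 to 36037217 on chromosome 16 (plus), Kpna4 at 68871071 to 68931035 on chromosome 3 (minus) and Kpna6 at 129321224 to 129350011 on chromosome 4 (minus). The closest coding sequences were those of Kpna3 and Kpna4, with 75.0% of aligned bases identical, and of Kpna1 and Kpna6, with 73.8%. Kpna2 and Kpna7, which belong to 1 subfamily, shared 59.5%, and the 5 closest pairs had no common 50-base stretch.

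The RefSeq promoters came from GRCm38.p6 and not from mm9 (250 bases before to 50 after a transcript start) and covered 7 members. Those of the 2 most abundant members are shown, since their ratio is followed through the stages. They lie at chr5:145009587-145009886 (Kpna7) and chr11:106999476-106999775 (Kpna2), both on the minus strand. Capitals mark CANNTG, the E-box bound by factors such as the oocyte protein FIGLA, and GGGCGG, a GC box, either strand.
Kpna7: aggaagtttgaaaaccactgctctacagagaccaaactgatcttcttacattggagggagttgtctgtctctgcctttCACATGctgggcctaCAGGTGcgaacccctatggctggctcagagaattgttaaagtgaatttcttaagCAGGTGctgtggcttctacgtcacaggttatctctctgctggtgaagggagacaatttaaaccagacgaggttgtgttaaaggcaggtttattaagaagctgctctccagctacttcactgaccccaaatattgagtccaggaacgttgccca
Kpna2: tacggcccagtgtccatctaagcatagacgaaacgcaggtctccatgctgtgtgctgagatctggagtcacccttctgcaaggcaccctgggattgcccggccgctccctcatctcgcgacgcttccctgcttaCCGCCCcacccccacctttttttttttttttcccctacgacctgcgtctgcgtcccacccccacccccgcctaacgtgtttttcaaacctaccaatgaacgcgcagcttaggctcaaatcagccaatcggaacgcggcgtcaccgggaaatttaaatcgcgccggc
The Kpna7 window held 3 CANNTG and 0 GGGCGG, and the Kpna2 window 0 and 1. Over 32851 promoters of the same length, 72.3% held a CANNTG and 35.7% a GGGCGG, so neither match is unusual.

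Kpna2, an importin alpha that many dividing cells express, was the most abundant member before ovulation. It was listed at 1079 and 1045 FPKM in WT growing, 817 and 598 FPKM in WT GV, and 24.7 and 27.6 FPKM in WT MII oocytes. The Zar1/2-null libraries held 956 and 761 FPKM, 519 and 707 FPKM, and 54.0 and 43.7 FPKM at the same stages. Both null MII libraries thus lay above both WT MII libraries, while the GV libraries of the 2 genotypes overlapped. By mean level, Kpna2 ranked 79 among the 11502 kept genes in WT growing oocytes and 743 in WT MII oocytes.

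Kpna7 was the second most abundant. WT libraries held 344 and 375 FPKM in growing, 210 and 170 FPKM in GV, and 30.3 and 33.4 FPKM in MII oocytes. Zar1/2-null libraries held 366 and 323 FPKM, 131 and 205 FPKM, and 79.7 and 76.2 FPKM. As with Kpna2, the genotypes overlapped at the GV stage and were apart at MII with the null libraries higher.

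Ran, the GTPase that gives transport its direction, was listed at 100.4 and 102 FPKM in WT growing, 55.4 and 42.8 FPKM in WT GV, and 13.4 and 10.3 FPKM in WT MII oocytes. It was listed at 141 and 130 FPKM, 43.3 and 48.1 FPKM, and 25.4 and 21.0 FPKM in the Zar1/2-null libraries. The null libraries lay above WT in growing and in MII oocytes and overlapped with them at GV.

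Kpna3, an importin alpha of another subfamily, behaved differently. It had 68.5 and 63.2 FPKM, 61.9 and 48.8 FPKM, and 14.9 and 18.5 FPKM in WT growing, GV and MII oocytes, and 51.2 and 44.4 FPKM, 34.9 and 35.7 FPKM, and 7.09 and 7.26 FPKM in the Zar1/2-null ones. At each of the 3 stages the null libraries were the lower ones, with no overlap.

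Kpnb1 encodes importin beta, the receptor that importin alpha needs. Its WT levels were 26.0 and 26.5 FPKM in growing, 22.7 and 21.7 FPKM in GV, and 2.61 and 2.90 FPKM in MII oocytes, and its Zar1/2-null levels 27.5 and 33.2 FPKM, 18.8 and 15.1 FPKM, and 1.97 and 2.01 FPKM. Xpo1 had 25.6 and 22.6 FPKM, 17.4 and 14.1 FPKM, and 2.19 and 1.90 FPKM in WT, and 25.1 and 23.0 FPKM, 12.02 and 8.82 FPKM, and 1.61 and 1.32 FPKM in Zar1/2-null oocytes. At GV and MII the null libraries of both genes were below the WT ones on the ERCC scale. The share of all genes apart in this way was not counted. Unscaled, both genes overlapped between genotypes at GV. Kpnb1 had 27.2 and 31.1 FPKM in WT and 35.4 and 25.8 FPKM in null GV oocytes. Xpo1 had 20.8 and 20.2 against 22.5 and 15.1 FPKM. On the ERCC scale Kpnb1 was not called at GV (limma adjusted p = 0.0609).

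Ipo5, an import receptor that works without importin alpha, stood at 7.14 and 8.93 FPKM in WT growing, 5.68 and 6.28 FPKM in WT GV and 1.71 and 1.89 FPKM in WT MII oocytes. Its Zar1/2-null values were 8.89 and 8.97 FPKM, 4.10 and 4.02 FPKM, and 2.19 and 2.44 FPKM. Kpna6 was between 5.21 and 8.59 FPKM in growing and WT GV oocytes, at 4.54 and 3.63 FPKM in null GV, and between 1.07 and 1.60 FPKM in all 4 MII libraries. Kpna1 and Kpna4 were the lowest. Kpna4 had 0.632 and 0.376 FPKM in WT growing but 2.54 and 2.83 FPKM in null growing oocytes, and Kpna1 0.606 and 0.579 against 1.13 and 0.910 FPKM. Both were at or below 0.0186 FPKM in every MII library, and Kpna1 was listed at 0 in 1 MII library of each genotype.

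**Figure D1:**
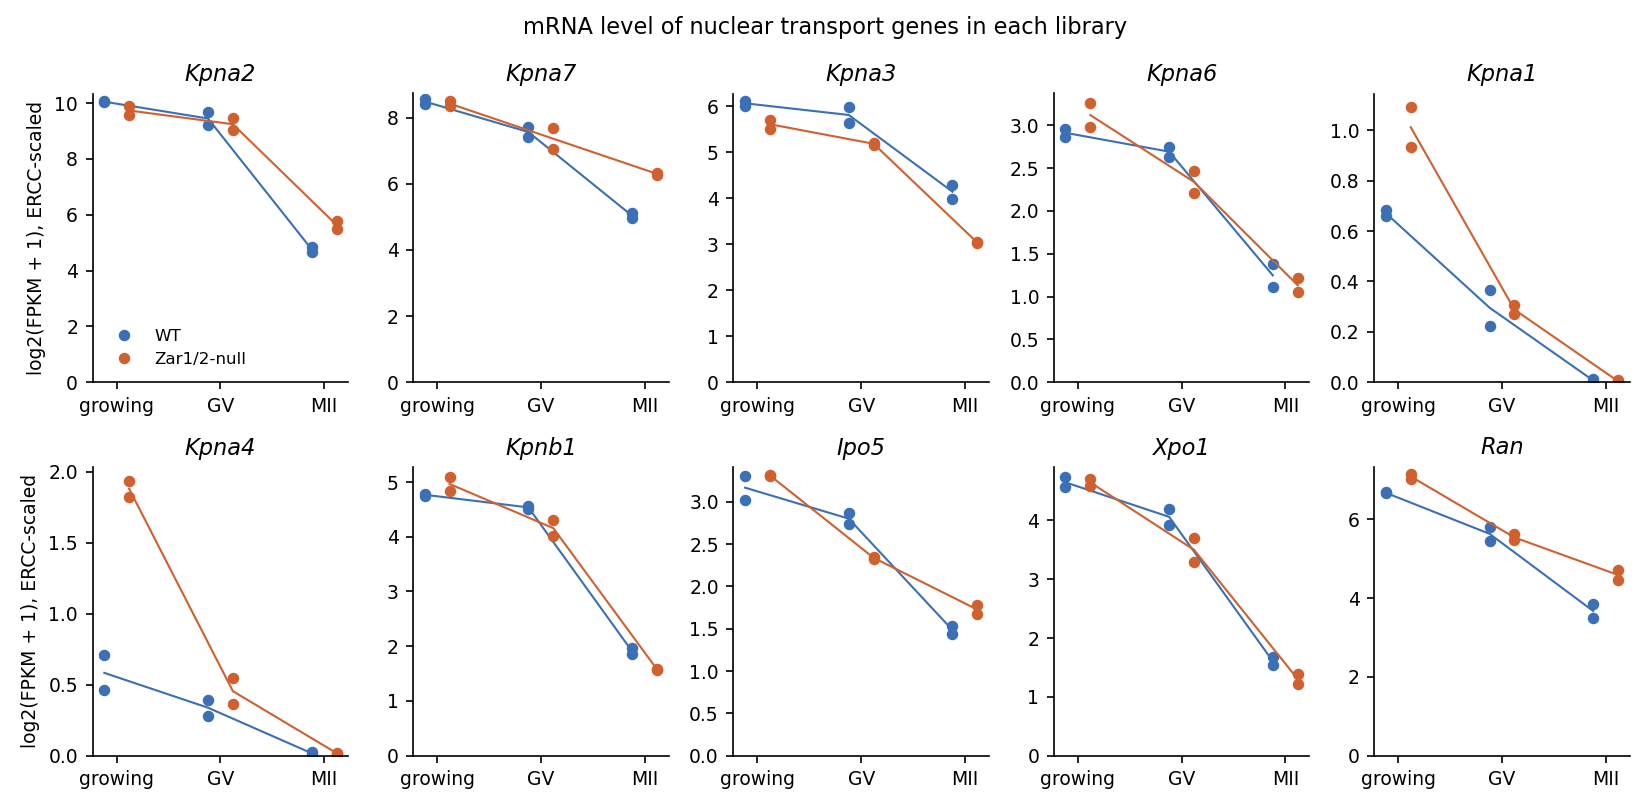
Level of each gene in each library, as log2(FPKM + 1) on the ERCC-scaled values, at the growing, GV and MII stages; points are single libraries, lines join the means of 2 libraries, and each panel has its own axis. All 10 genes are lowest at MII, and at that stage Kpna2, Kpna7 and Ran are higher in Zar1/2-null libraries while Kpna3 is lower.

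The first comparison asked how each stage differed between genotypes. limma was fitted to log2(FPKM + 1) of all 11502 genes over the 12 libraries, with Benjamini-Hochberg adjustment, and a gene was called at an adjusted p under 0.05. Since each library is a bulk sample of pooled oocytes, fewer intact oocytes and less RNA per oocyte cannot be told apart. The added 1 FPKM makes the log2 fold changes of Kpna1, Kpna4 and the low MII values smaller than the ratio of the levels. All groups share 1 estimate of spread, and an exact permutation test of 2 libraries against 2 could not give less than 0.333.

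In growing oocytes, Kpna4 and Kpna1 were higher in Zar1/2-null libraries. Kpna4 had a log2 fold change of 1.30 (SE 0.13, adjusted p = 3.65e-05) and Kpna1 one of 0.34 (SE 0.11, adjusted p = 0.0338). Thus 2 of 10 members rose, against 10.6% of all genes tested, and 0 fell, against 24.4%, with an all-gene median of -0.16. The all-gene shares were 14.9% and 12.3% without the ERCC scaling. Kpna3 lay just outside the threshold, with -0.46 (SE 0.16, adjusted p = 0.0501), and Ran had 0.41 (SE 0.18, adjusted p = 0.0936). The Ran difference was called without the ERCC scaling, at 0.70 (adjusted p = 0.00406). Kpna2 (-0.32, adjusted p = 0.273) and Kpna7 (-0.063, adjusted p = 0.838) did not pass, and the sign of Kpna7 turned without the scaling (0.22). Kpna1 was not called in 7 of the 12 fits that left out 1 library. Sums of 6 immune and blood markers were 3.02 and 3.07 FPKM in null and 0.458 and 1.21 FPKM in WT growing oocytes, led by Cd68 (means 3.04 and 0.727 FPKM), with Ptprc, Cd3e, Hba-a1 and Hbb-b1 at 0 in both. Sums of 14 granulosa and cumulus markers were 14.2 and 22.4 FPKM in null and 29.3 and 32.5 FPKM in WT libraries, with Amh and Ptx3 at 0 in both. The highest of them was Nr5a2 in null (mean 9.83 FPKM) and Cyp19a1 in WT oocytes (mean 17.9 FPKM). The part of these markers in the result was not tested.

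At the GV stage, Kpna3, Xpo1 and Ipo5 were lower in Zar1/2-null oocytes on the ERCC scale. Their log2 fold changes were -0.63 (SE 0.16, adjusted p = 0.0104), -0.56 (SE 0.17, adjusted p = 0.0215) and -0.46 (SE 0.14, adjusted p = 0.0181). With 3 of 10 members lower and 0 higher, the members were near the background, in which 40.6% of genes were lower and 2.83% higher. The median over all genes was -0.38, so the 3 values stand little apart from that shift, and the 3 calls were lost without the ERCC scaling, where they were -0.18, -0.14 and -0.093. The all-gene shares were then 13.5% lower and 7.19% higher. Kpna2 had -0.21, Kpna7 -0.20 and Ran -0.092, with adjusted p of 0.442, 0.434 and 0.690, and without the scaling each was above 0 (0.25, 0.25 and 0.36, all still uncalled). Without the first WT GV library, 1 member was lower instead of 3.

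At MII, members were called in both directions. Kpna7 was 2.45-fold higher in Zar1/2-null oocytes, with a mean of 78.0 ± 2.47 against 31.9 ± 2.23 FPKM (SD, n = 2 each) and a log2 fold change of 1.27 (SE 0.20, adjusted p = 0.000590). Ran was higher by 0.92 (SE 0.18, adjusted p = 0.00208) and Kpna2 by 0.87 (SE 0.21, adjusted p = 0.00809). Kpna3 was lower by a log2 fold change of -1.11 (SE 0.16, adjusted p = 0.000301). Of the 10 members, 3 were higher and 1 lower, where 21.5% and 10.3% of all genes were, so the counts were near the background. None was more than 3-fold higher in mean FPKM, with means below 1 FPKM set to 1, where 7.49% of all genes were.

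These 4 MII calls did not rest on the ERCC scaling. On the unscaled values Kpna7 was at 135 and 147 FPKM in WT and 282 and 302 FPKM in null MII oocytes, Ran at 59.6 and 45.3 against 89.7 and 83.1 FPKM, and Kpna3 at 66.3 and 81.3 against 25.1 and 28.8 FPKM. The unscaled log2 fold changes were 1.05 for Kpna7, 0.72 for Ran, 0.65 for Kpna2 and -1.42 for Kpna3, with adjusted p of 0.000180, 0.00125, 0.00235 and 6.45e-06. Kpnb1 and Xpo1, which were not called on the ERCC scale (-0.33 and -0.30, adjusted p = 0.123 and 0.216), were then called lower too, at -0.64 (adjusted p = 0.0140) and -0.63 (adjusted p = 0.0132). The all-gene shares without the scaling were 24.6% higher and 23.4% lower. The Kpna2 call was lost without the first WT MII library (adjusted p = 0.0616) and without the first null MII library (adjusted p = 0.0698). Granulosa and cumulus marker sums at MII were 7.33 and 8.58 FPKM in null and 5.21 and 5.52 FPKM in WT libraries. They were led by Cyp19a1, with means of 6.44 FPKM in null and 3.93 FPKM in WT oocytes. Amh, Foxl2 and Inha were at 0 in both genotypes. The part of these markers in the MII result was not tested.

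**Figure D2:**
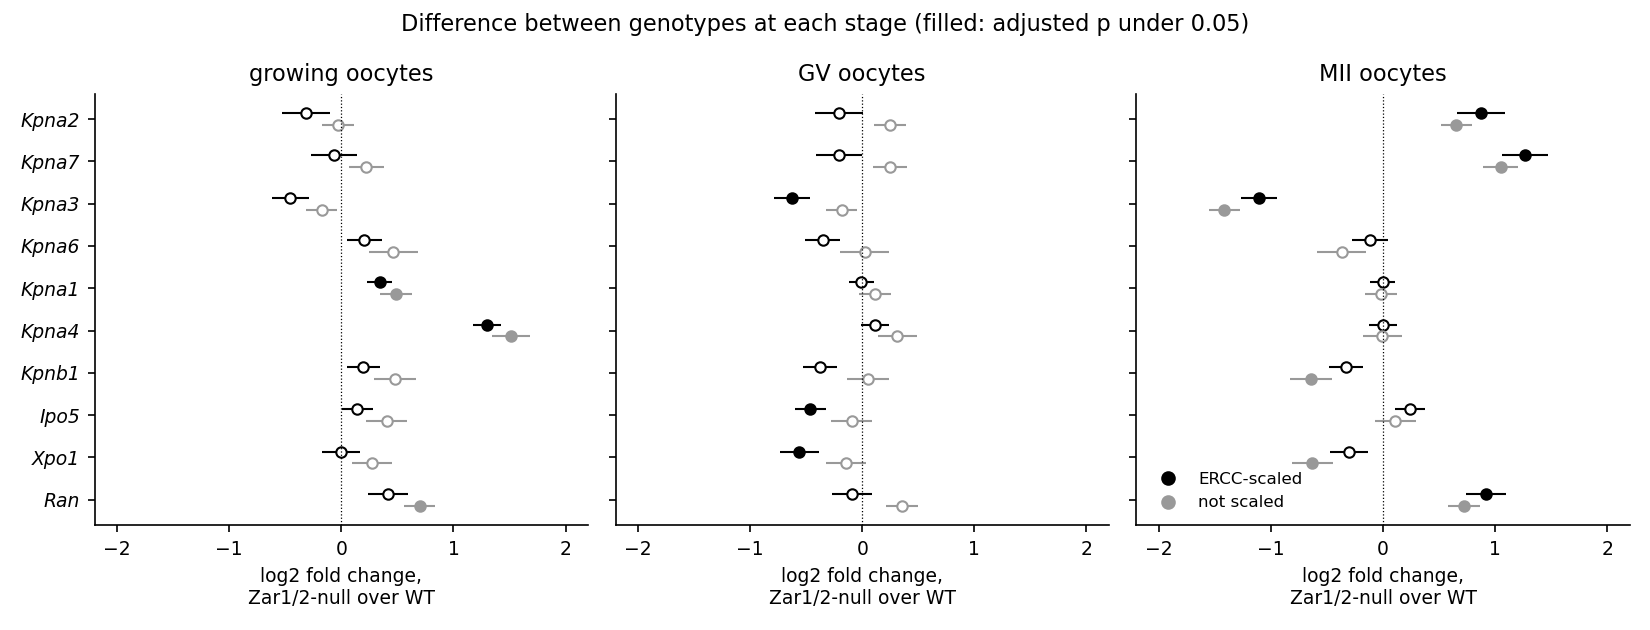
Log2 fold change of Zar1/2-null over WT for each gene (rows) at the growing, GV and MII stages, from limma on ERCC-scaled values (black) and on the values without that scaling (grey); bars are 1 SE and filled points passed an adjusted p of 0.05. The GV calls of Kpna3, Ipo5 and Xpo1 are filled only in black, whereas at MII Kpna2, Kpna7, Ran and Kpna3 are filled under both.

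The stages were compared next within a genotype. From growing to GV in WT, Ran (-1.04, adjusted p = 0.00284), Kpna7 (-0.92, adjusted p = 0.00859), Xpo1 (-0.59, adjusted p = 0.0250) and Kpna1 (-0.38, adjusted p = 0.0271) fell on the log2 scale. Hence 4 of 10 members fell and 0 rose, against 28.7% and 2.77% of all genes. Without the ERCC scaling the all-gene shares were 3.23% and 3.66%, and Ran was the member still called. In the fits that left out the second WT growing or the second WT GV library, 1 member was lower instead of 4. Kpna2 was at -0.60 with an adjusted p of 0.0501.

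From GV to MII in WT, all 10 members fell, where 93.4% of all genes did and 0.104% rose. The fall therefore says little about these genes, but its size varied among them. Kpna2 kept 3.69% of its mean GV level, a log2 fold change of -4.69 (adjusted p = 2.77e-09). Kpnb1 kept 12.4%, Xpo1 13.0%, Kpna7 16.8%, Ran 24.1%, Kpna6 25.3%, Ipo5 30.1% and Kpna3 30.2%. The median over the 10054 genes with a GV mean of at least 1 FPKM was 19.0%. Kpna1 and Kpna4, under 1 FPKM at GV, are not in this order. Without the ERCC scaling, 4 members fell (Kpna2, Kpna7, Kpnb1 and Xpo1), and Kpna3 and Ipo5 had values just above 0 (0.028 and 0.019). Then 47.6% of all genes were called lower and 19.7% higher.

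In Zar1/2-null oocytes the same 10 fell from GV to MII, against 68.7% of all genes lower and 0.209% higher. Kpna2 kept 7.97%, Kpnb1 11.7%, Xpo1 14.1%, Kpna3 20.3%, Kpna6 29.3%, Kpna7 46.4%, Ran 50.7% and Ipo5 57.0%, and the median over 9139 genes was 36.4%. Kpna7, Ran and Ipo5 were thus above the median and the other 5 below it. Without the ERCC scaling 40.5% of genes were called lower and 19.5% higher, and Kpna7 (-0.012), Ran (0.076) and Ipo5 (0.22) were not called.

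**Figure D3:**
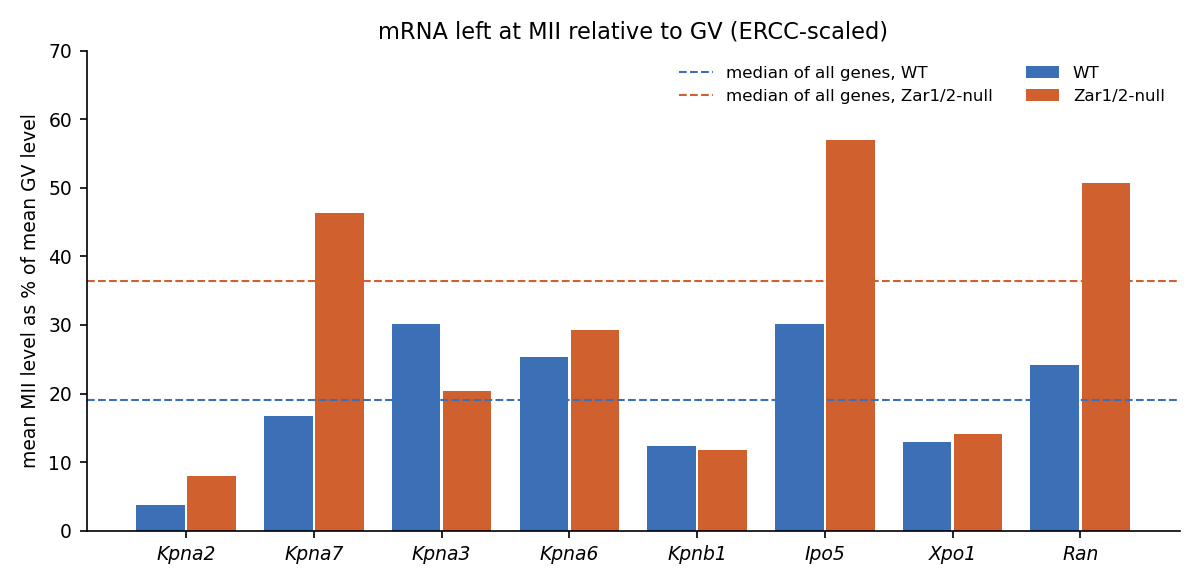
Mean MII level as a percentage of the mean GV level in WT (blue) and Zar1/2-null (orange) oocytes, on ERCC-scaled FPKM, for the 8 members with a mean of at least 1 FPKM at GV; bars are ratios of group means of 2 libraries and carry no error, and dashed lines are the medians of all genes. Kpna2, Kpnb1 and Xpo1 are below the median in both genotypes, and Kpna7, Ran and Ipo5 keep 46.4% to 57.0% in Zar1/2-null oocytes.

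Whether the change from GV to MII differed between genotypes was tested as an interaction in the same fit over all 12 libraries. The null minus WT difference of the log2 changes was 1.47 for Kpna7 (SE 0.29, adjusted p = 0.00293), 1.08 for Kpna2 (SE 0.30, adjusted p = 0.0180), 1.01 for Ran (SE 0.25, adjusted p = 0.0107) and 0.70 for Ipo5 (SE 0.19, adjusted p = 0.0166). Thus 4 of 10 members had a positive difference and 0 a negative one, against 33.9% and 0.643% of all genes, whose median was 0.48. Without the ERCC scaling, which brings that median to 0.03 and the all-gene shares to 15.1% and 6.46%, Kpna7 was still called (0.80, adjusted p = 0.0222). Kpna2, Ran and Ipo5 then were not (0.41, 0.37 and 0.20), and Kpna3 was called with a negative difference of -1.23 (adjusted p = 0.000743). Kpna3 had -0.48 (adjusted p = 0.123) on the ERCC scale. Its unscaled levels in WT were 74.1 and 70.01 FPKM at GV and 66.3 and 81.3 FPKM at MII, and in Zar1/2-null oocytes 65.5 and 61.2 FPKM at GV and 25.1 and 28.8 FPKM at MII. The Kpna2 interaction was also lost without the first library of WT GV, WT MII, null GV or null MII oocytes. Without the first WT MII library, 2 members had a positive difference instead of 4.

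Ratios between 2 genes of the same library do not depend on the ERCC factor. They were chosen after the levels had been seen, and 8 comparisons of stages were made, over 4 libraries against 4 with both genotypes together. The permutation treated the 4 libraries of a stage as alike, whatever their genotype. The Kpna7 to Kpna2 ratio was 0.257 and 0.285 in WT GV and 0.253 and 0.290 in null GV oocytes, and 1.23 and 1.21 in WT MII and 1.48 and 1.74 in null MII oocytes. It was thus above 1 in every MII library and below 0.3 in every GV library, 5.17-fold apart (exact two-sided permutation p = 0.0286, the smallest that 4 against 4 can give, and 0.0571 after Benjamini-Hochberg adjustment over the 8). In growing oocytes the ratio was 0.319 and 0.359 in WT and 0.383 and 0.425 in null libraries. It was there 1.37-fold higher than at GV (exact permutation p = 0.0286, adjusted p = 0.0571), again with all libraries apart. Since few stretches of Kpna2 have a single position in mm9, the ratio of the levels is uncertain. Whether that limit was equal in each library was not tested.

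Within the pool of importin alpha mRNA, Kpna2 made up 66.7% to 75.2% of the summed FPKM and Kpna7 19.0% to 28.3% in the growing and GV libraries. At MII, Kpna2 was at 34.7% and 34.0% in WT and 38.1% and 34.0% in null libraries, and Kpna7 at 42.6% and 41.2% in WT and 56.2% and 59.3% in null libraries. Kpna3 took 21.0% and 22.8% of the pool in WT MII but 4.997% and 5.65% in null MII libraries, the share of the 6 that was furthest apart between genotypes. It took 3.70% to 5.94% in all growing and GV libraries.

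**Figure D4:**
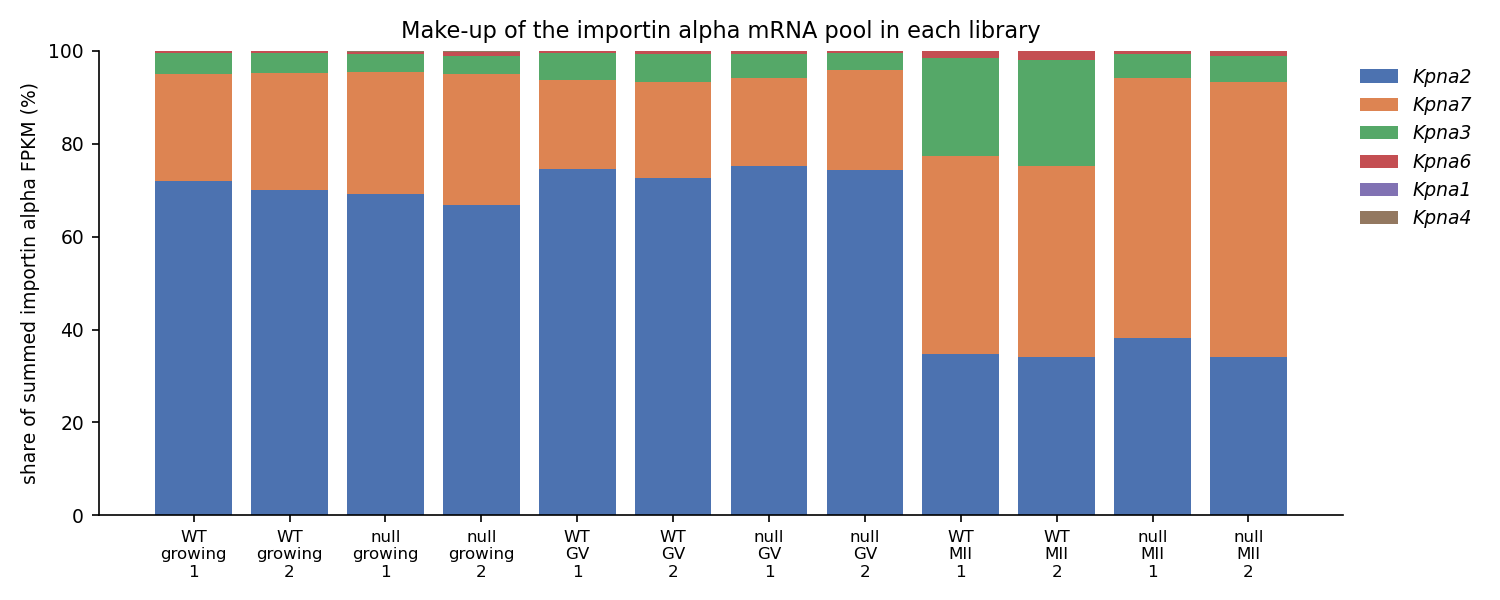
Share of the summed FPKM of the 6 importin alpha genes (percent) in each of the 12 libraries, ordered by stage and genotype, with null for Zar1/2-null and the replicate number below; each bar is 1 library. Kpna2 holds 66.7% to 75.2% before ovulation, and Kpna3 holds 21.0% and 22.8% in WT MII against 4.997% and 5.65% in Zar1/2-null MII libraries.

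Kpnb1 served as the second reference for such ratios, since its partners bind to it. At MII the Kpna7 to Kpnb1 ratio was 11.6 and 11.5 in WT and 40.5 and 38.0 in Zar1/2-null libraries, and at GV 9.24 and 7.84 against 6.96 and 13.6. The Ran to Kpnb1 ratio at MII was 5.14 and 3.55 in WT and 12.9 and 10.5 in null libraries, and at GV 2.44 and 1.97 against 2.30 and 3.20. Both ratios were apart between genotypes at MII and overlapped at GV, and 2 libraries against 2 cannot be tested below 0.333. The Xpo1 to Kpnb1 ratio lay between 0.586 and 0.984 in all 12 libraries, with WT and null overlapping at MII. With both genotypes together, the Ran to Kpnb1 ratio was 2.89-fold higher at MII than at GV (exact two-sided permutation p = 0.0286, adjusted p = 0.0571). That fold averages genotypes that were apart at MII. The Xpo1 to Kpnb1 ratio differed 1.12-fold (exact p = 0.171, adjusted p = 0.171), and Kpna7 to Kpnb1 2.34-fold (exact p = 0.0857, adjusted p = 0.114). Growing oocytes were above GV 1.71-fold for Ran to Kpnb1 (exact p = 0.0286, adjusted p = 0.0571). They were 1.30-fold above for Xpo1 to Kpnb1 (exact p = 0.0571, adjusted p = 0.0914) and 1.37-fold for Kpna7 to Kpnb1 (exact p = 0.114, adjusted p = 0.131).

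**Figure D5:**
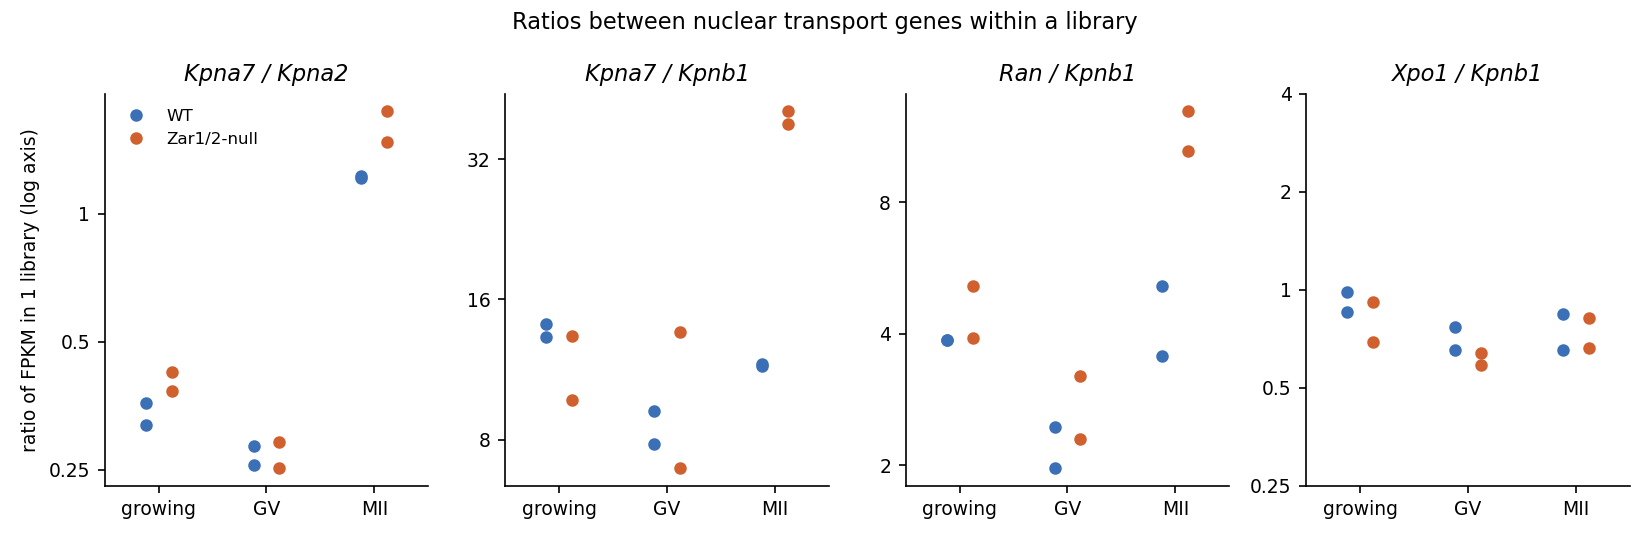
Ratio of the FPKM of 2 genes in the same library (log axis) for Kpna7 over Kpna2, Kpna7 over Kpnb1, Ran over Kpnb1 and Xpo1 over Kpnb1, at each stage in WT (blue) and Zar1/2-null (orange) oocytes; each point is 1 library. Kpna7 over Kpna2 is above 1 at MII in both genotypes, Kpna7 over Kpnb1 reaches 38.0 and 40.5 in Zar1/2-null MII libraries, and Xpo1 over Kpnb1 stays between 0.586 and 0.984.

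Likeness over the 12 libraries was measured as Pearson's r of log2(FPKM + 1), as a description, since the points share libraries, factors and the common fall at MII. Kpnb1 and Xpo1 were the closest pair of members (r = 0.989), followed by Kpna6 and Kpnb1 (0.988). Kpna7 was most like Ran among the members (0.975), and Kpna2 most like Kpnb1 (0.969). Of 4325 genes that averaged 10 FPKM or more, the 3 most like Kpna7 were Actg1, a cytoplasmic actin (0.997), Abhd4 (0.997) and Tuba1b, an alpha tubulin (0.995). Actg1 held 4.08 and 4.77 FPKM in WT MII and 21.9 and 17.6 FPKM in Zar1/2-null MII libraries.

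Other genes of the pathway were counted from 3 lists, and each count stands against the shares of all genes called higher and lower in the null, which were 10.6% and 24.4% in growing, 2.83% and 40.6% in GV and 21.5% and 10.3% in MII oocytes. These shares were 14.9% and 12.3%, 7.19% and 13.5%, and 24.6% and 23.4% without the ERCC scaling, a setting applied to the lists after the data had been seen. Of 16 further importin beta family members, 15 were tested. In growing oocytes 2 were higher in the null (Xpot, the tRNA exportin, and Tnpo3) and 2 lower (Tnpo1 and Xpo4). Xpot had 0.569 and 0.344 FPKM in WT and 3.08 and 3.59 FPKM in null growing oocytes (log2 fold change 1.58, adjusted p = 7.30e-06), a low level with a higher null, as for Kpna4. At GV 9 were lower and 0 higher, and at MII 1 was lower and 0 higher. That gene, Tnpo1, the import receptor of many RNA-binding proteins, was lower at each stage on the ERCC scale, with log2 fold changes of -0.73, -0.86 and -0.86 (adjusted p = 0.0108, 0.00375 and 0.00406), and without the scaling only at MII (-1.18, adjusted p = 0.000231). Cse1l, named for its role of returning importin alpha to the cytoplasm and after its values were seen, was lower at GV (-0.85, adjusted p = 0.00294), with means of 7.05 against 13.7 FPKM, a call lost without the scaling (-0.45, adjusted p = 0.0627). On the unscaled values 2 of the 15 were higher and 0 lower in growing oocytes, 1 higher and 0 lower at GV and 0 higher and 3 lower at MII, so the GV count depends on the scaling. The list median was -0.08, -0.48 and -0.05 at the 3 stages, and -0.16, -0.38 and 0.06 over all genes.

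Of 9 genes of the Ran cycle and its adaptors, 0 were called in growing oocytes, 2 were lower at GV (Rangrf and Rcc2) and 1 was higher at MII. The latter was again Rangrf, a Ran-binding nucleotide release factor. It was lower at GV (-0.87, adjusted p = 0.00296), but not called without the scaling (-0.46, adjusted p = 0.136), and at MII it had a mean of 5.42 FPKM in null and 0.795 FPKM in WT MII oocytes (log2 fold change 1.83, SE 0.18, adjusted p = 1.14e-05). Rcc1, the exchange factor that loads Ran with GTP at chromatin, was not called at any stage between genotypes. On the unscaled values, Rangrf at MII was the only one of the 9 called at any stage (2.25, adjusted p = 3.34e-06). The list median was 0.01, -0.30 and 0.09.

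Of 7 spindle factors that importins hold, Tpx2, Nusap1 and Dlgap5 were lower in null growing oocytes and Tpx2, Numa1 and Dlgap5 in null GV oocytes, while none was higher there. Dlgap5 was at a mean of 29.6 against 89.9 FPKM in growing oocytes (log2 fold change -1.57, adjusted p = 0.000177), and Tpx2, the activator of Aurora A on the spindle and also named after its values were seen, at 39.0 against 55.7 FPKM (-0.50, adjusted p = 0.0182). At MII 1 was called, Rae1, which was higher in the null (0.75, adjusted p = 0.00740), and Tpx2 was at 17.3 against 19.3 FPKM (adjusted p = 0.535). Of the calls in growing and GV oocytes, the one that remained without the ERCC scaling was Dlgap5 in growing oocytes (-1.29, adjusted p = 0.000586), and Tpx2 had -0.22 (adjusted p = 0.269) in growing and -0.15 (adjusted p = 0.510) in GV oocytes, where its unscaled levels overlapped (46.8 and 54.2 FPKM in WT, 47.4 and 43.3 FPKM in null). At MII, without the scaling, Rae1 was higher and Tpx2 and Nusap1 were lower. The study, which marked changes of more than 3-fold, describes Tpx2 mRNA as comparable between genotypes at all stages. The limma calls carry no fold threshold. The list median was -0.25, -0.40 and -0.02.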

How the data were processed

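Oocyte RNA was measured in 12 libraries of 10 oocytes each, primed with oligo-dT, so that mRNAs with short poly(A) tails may be under-represented. The authors shortened the reads to 50 bp, aligned them to mm9 with TopHat2 2.1.1, used reads with 1 position only, quantified UCSC genes with Cufflinks 2.2.1 and deposited FPKM values multiplied by an ERCC factor, without counts. The study lists the total reads of each library, but without counts per gene no counting interval is given. The factor was recovered as the number that returns 100% of a library's values to 6 significant digits.

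The 11502 genes reaching 1 FPKM in some library were kept. Group means of log2(FPKM + 1) were modelled in limma 3.58.1 (R 4.3.3) over all 12 libraries, with a trend on intensity. The p-values were Benjamini-Hochberg adjusted over all kept genes. Ratios were compared by exact permutation in scipy 1.17.1. On simulated data for the MII comparison, limma recovered 92% of 200 genes changed 3-fold among 11502, and 2 unchanged genes were called. The changed genes were drawn from those of at least 5 FPKM in WT MII oocytes. Kpnb1, Xpo1, Ipo5, Kpna6, Kpna1 and Kpna4 were below that level there. The noise was normal with a fixed spread per gene and no error in the library factors. The 92% thus does not apply to those members or to smaller changes. Stretches of 50 bases were searched in mm9 with blastn, and exact matches counted.

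Alternatives were no ERCC scaling, median scaling, a pseudocount of 0.1 FPKM, a mean of at least 5 FPKM, no filter, a replicate block, no trend, the compared groups alone, a 3-fold rule and each library left out. All 10 members are named. By the naming rule, the other genes with values are those called with the largest and smallest log2 fold change of each pathway list and the 3 genes most like Kpna7, with Zar1l as the check of the labels. Zar1, Cse1l, Tpx2 and marker genes are exceptions, named after their values were seen. The members and lists were chosen with earlier results of these data known.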

Additional observations from a re-analysis of the deposited data

Results flagged for a closer look

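In 4 genes the change from GV to MII differed between genotypes by limma's test of that difference (Benjamini-Hochberg adjusted over 11502 genes). On the log2 scale, null minus WT, it was 1.47 for Kpna7 (adjusted p = 0.00293), 1.08 for Kpna2 (adjusted p = 0.0180), 1.01 for Ran (adjusted p = 0.0107) and 0.70 for Ipo5 (adjusted p = 0.0166). Over all genes 33.9% had a positive call, and of the 4 only Kpna7 was still called both without the ERCC scaling and under median scaling.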

How the results depend on the processing

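Over the alternatives, 931 values of 47 single-gene results were recomputed: 815 kept their direction and their side of the threshold, 76 fell back over it, 16 crossed it and 24 changed sign. Leaving out a library outside the compared groups cannot alter a fold change, only its p-value. The same holds for the replicate block, no trend, the compared groups alone and the other filters. The 815 is thus partly fixed in advance and does not measure robustness. The scaling of the libraries mattered most. Without the ERCC scaling and under median scaling alike, 0 members were lower at GV (3 in the reported fit), 3 were lower at MII (1), 1 fell in WT growth (4), 4 fell in WT maturation (10) and 1 had a positive genotype difference in maturation (4). A negative difference was called for 1 member without ERCC scaling and for 2 under median scaling (0). Under median scaling 1 member rose in WT and 1 in null maturation (0 each), and 6 fell in the null (10). Signs turned, without ERCC scaling and under median scaling, for Kpna7 in growing oocytes (0.22 and 0.23), for Kpna2 (0.25 and 0.34), Kpna7 (0.25 and 0.34) and Ran (0.36 and 0.44) at GV, for Kpna3 (0.028 and 0.38) and Ipo5 (0.019 and 0.34) in WT maturation, and for Ran (0.076 and 0.36) and Ipo5 (0.22 and 0.48) in null maturation. Under median scaling only, they also turned for Kpna6 (0.10) and Ran (0.062) in WT and Kpna7 (0.27) in null maturation. All these values are log2 fold changes.

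In growing oocytes, the count of members higher (2) was 1 with a pseudocount of 0.1 FPKM and 0 at a mean of at least 5 FPKM, which leaves out Kpna1 and Kpna4, and the count lower (0) was 1 without the trend and 1 with the compared groups alone. With the compared groups alone it was 0 lower at GV and 2 in WT growth. The 3-fold rule was applied to group means, with means below 1 FPKM set to 1. It gave 0 members higher in growing oocytes, where Kpna4 had means of 2.69 FPKM in null and 0.504 FPKM in WT. It gave 0 lower at GV, 0 higher and 0 lower at MII, 0 lower in WT growth and 5 lower in null maturation. Leaving out each library in turn gave 1 to 2 members higher and 0 to 1 lower in growing oocytes, 1 to 4 lower at GV, 1 to 5 lower in WT growth and 2 to 4 with a positive difference. The sign turned within the ranges of Kpna7 in growing oocytes (-0.15 to 0.026) and of Kpna2 (-0.43 to 0.020), Kpna7 (-0.52 to 0.12) and Ran (-0.28 to 0.092) at GV. For the Kpna7 to Kpna2 ratio, MII and GV libraries stayed apart with any library left out (log2 difference 2.26 to 2.44) and in each genotype alone (2.17 and 2.57), where an exact test cannot pass 0.05. The cause of these changes was not tested.

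With the replicate number as a block, 6 members fell in WT growth instead of 4, and no other count of members changed. The numbers are shared but not paired by the labels, and deviations of same-numbered libraries correlated at -0.117 to 0.163. The lowest value was that of the GV groups, and with the null GV numbers crossed, an alternative added after seeing the data, 4 members were lower at GV. Over all genes, calls lower in growing oocytes fell from 2801 to 1412 without ERCC scaling, and in WT growth from 3306 to 372. With 2 libraries a group and no counts, the error of a single FPKM value is not known, which limits the low genes Kpna1 and Kpna4 most.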
